A study of Mus musculus with 6 samples.

Results

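The myeloid C-type lectin receptors of the Dectin-1, Dectin-2 and DCIR families were followed, gene by gene, in infarcted mouse hearts with and without lncRNA-DRR, a long noncoding RNA. The 10 genes are Clec4a1, Clec4a2, Clec4a3, Clec4b1, Clec4d, Clec4e, Clec4n, Clec7a, Clec9a and Clec10a, and they were chosen by gene name, with results of the comparison between the genotypes already known. Each of the 10 symbols matched 1 of the 52550 gene rows by its Ensembl identifier. The 6 C57BL/6 mice were infarcted at 8 weeks of age by permanent ligation of the left anterior descending coronary artery, and their hearts were collected 2 weeks later, when the mice were 10 weeks old. Of these hearts 3 were wild type (WT, n = 3) and 3 came from lncRNA-DRR-/- mice (KO, n = 3). All 6 hearts were infarcted, so no unoperated or sham level was measured here. How the deletion was made, and whether the mice came from 1 line or several, is not stated in the labels, and the deleted RNA itself was not analysed here because they give no gene identifier for it.

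C-type lectin receptors are surface proteins by which macrophages, monocytes, dendritic cells and neutrophils recognise sugars, lipids of microbes and material from dead cells. One group activates the kinase SYK, and several of its receptors, Dectin-1 among them, also engage the adaptor CARD9. Dectin-1 (Clec7a) and DNGR-1 (Clec9a) reach SYK through a tyrosine motif in their own tail. Dectin-2 (Clec4n), Mincle (Clec4e), MCL (Clec4d) and DCAR (Clec4b1) reach it by pairing with the Fc receptor gamma chain encoded by Fcer1g. The DCIR receptor encoded by Clec4a2 carries an inhibitory motif instead and recruits phosphatases such as the one encoded by Ptpn6. After an infarct, myeloid cells that carry such receptors enter the dying muscle and later remain in the scar.

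On chromosome 6, 7 members lie within 368 kb of one another (positions 122921848 to 123289870, GRCm38, GENCODE M21), in the order Clec4a1, Clec4a3, Clec4b1, Clec4a2, Clec4n, Clec4d and Clec4e, with Clec4a4 and Clec4b2 between them. Clec9a and Clec7a lie 6.12 Mb farther along the same chromosome, within 64 kb of each other. Clec10a lies on chromosome 11 (70156197 to 70170834), so the 10 genes do not form a single cluster. GENCODE M21 gives 9 of them as protein-coding and Clec7a as a polymorphic pseudogene, a class for genes that are intact in some strains only.

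RefSeq promoter windows (GRCm38.p6, 250 bases before to 50 after the start of the gene) were found for 8 of the 10 members, all but Clec4n and Clec10a. For Clec4a2 the window (123122440 to 123122739) lies inside the gene body of GENCODE M21 (123106428 to 123143999), so its motifs are those of an internal site. Windows of 4 genes are shown: Clec4d, which had the widest upward difference, Clec4b1, which was listed at 0 in each KO heart, Clec4a3, which was lower in each KO heart, and Clec4e, the neighbour of Clec4d. Capitals mark GAGGAA, the purine-rich core bound by the myeloid factor PU.1, and a loose interferon response element made of a GAAA repeat with any pair of bases between, each on either strand (GAGGAA reads TTCCTC on the other strand). In Clec4d and Clec4b1 a match of each kind overlaps, so they form 1 run of capitals.
Clec4d (chr6:123261857-123262156, plus strand): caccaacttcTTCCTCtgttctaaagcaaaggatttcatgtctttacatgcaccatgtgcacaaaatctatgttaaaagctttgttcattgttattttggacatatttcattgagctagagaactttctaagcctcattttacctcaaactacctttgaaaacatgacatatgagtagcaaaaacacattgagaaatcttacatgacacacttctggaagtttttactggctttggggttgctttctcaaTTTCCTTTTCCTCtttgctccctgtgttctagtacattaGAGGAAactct
Clec4b1 (chr6:123049712-123050011, plus strand): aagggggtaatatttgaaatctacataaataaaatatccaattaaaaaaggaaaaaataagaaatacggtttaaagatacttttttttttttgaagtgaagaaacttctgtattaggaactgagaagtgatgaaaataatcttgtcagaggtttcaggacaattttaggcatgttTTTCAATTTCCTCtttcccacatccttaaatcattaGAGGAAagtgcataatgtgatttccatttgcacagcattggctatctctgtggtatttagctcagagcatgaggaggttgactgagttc
Clec4e (chr6:123289822-123290121, minus strand): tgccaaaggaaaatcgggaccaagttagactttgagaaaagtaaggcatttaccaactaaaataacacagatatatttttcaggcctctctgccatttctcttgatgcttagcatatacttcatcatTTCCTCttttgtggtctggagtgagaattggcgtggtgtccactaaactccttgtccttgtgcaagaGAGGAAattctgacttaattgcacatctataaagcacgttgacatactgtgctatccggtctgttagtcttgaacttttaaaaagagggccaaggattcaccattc
Clec4a3 (chr6:122952265-122952564, plus strand): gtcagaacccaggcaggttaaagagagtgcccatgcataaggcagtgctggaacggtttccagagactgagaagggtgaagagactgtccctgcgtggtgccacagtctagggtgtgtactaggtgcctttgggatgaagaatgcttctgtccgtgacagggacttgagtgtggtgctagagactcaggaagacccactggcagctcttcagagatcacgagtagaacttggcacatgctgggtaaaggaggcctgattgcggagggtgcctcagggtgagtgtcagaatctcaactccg

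GAGGAA or its complement occurred in 5 of the 8 member promoters (Clec4a1, Clec4b1, Clec4d, Clec4e and Clec7a) and in 28.3% of 27025 promoters of the same length. This core was chosen after the sequences had been seen. The longer GAGGAAG occurred in 2 of 8 (Clec4a1 and Clec4d), beside 13.5% of all promoters, and the interferon element in 2 of 8 (Clec4b1 and Clec4d), beside 3.49%. The TATA motif, TATAAA, occurred in 4 of 8 (Clec4a2, Clec4e, Clec7a and Clec9a), beside 14.2% of all promoters. Motifs were sought anywhere in the window on either strand, so a match to TATAAA need not lie where a TATA box works. The C/EBP motif in its loose form, TTNNGNAA, occurred in 3 of 8 (Clec4a2, Clec4d and Clec4e), beside 40.7%. The AP-1 motif, TGACTCA or its complement, occurred in Clec4a2 and in 5.17% of all promoters, and a loose NF-kB motif in Clec4a1 and in 19.0%. The window of Clec4a3 held none of these letters. No member window held an E-box (CACGTG), found in 7.24% of all promoters, or a D-box (2 forms, one being TTATGTAA), found in 1.06%.

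Expression was measured as FPKM, fragments per gene scaled to transcript length and library size. The depth was about 5189000 to 9398000 fragments per library, as estimated from the steps in low values, and 14656 genes with at least 0.5 FPKM in 3 or more libraries were tested. The tissue label held, since all 8 cardiomyocyte markers were tested and Myh6, the cardiac myosin gene, lay between 1568 and 2814 FPKM. WT replicate 1 stood apart in having the lowest summed cardiomyocyte markers of the 6 (15161 FPKM, against 17018 to 23413 in the others) and the highest summed macrophage markers. By the mean log2 value of the cardiomyocyte markers, KO replicate 2 was lower still (-0.50 from the 6-library mean, against -0.28 in WT replicate 1), and its fibroblast markers were the highest (0.51). KO replicate 3 read as female by Xist (25.6 FPKM, against 0.0742 FPKM or less in the others) and the other 5 hearts as male. The labels give neither a sex nor an hour of harvest. All 37 mitochondrial genes are listed at 0 in every library, so a listed 0 need not mean that a transcript was lacking.

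The 10 genes did not move together between the genotypes. Clec4d was higher in KO hearts, Clec4b1 was listed at 0 in every KO heart, and Clec4a3 and Clec10a were lower in each KO heart than in any WT heart. Of the 9 tested members these 2 had every KO heart below every WT heart, as did 7.5% of all tested genes. Clec4a1 and Clec7a had lower KO means with overlapping groups, while Clec4n, Clec4e, Clec4a2 and Clec9a had means close to those of WT beside their spread. Because the genes were picked with this comparison in view, their differences stand as a description and carry no test. In the fit across all genes (limma, Benjamini-Hochberg) 0 of the 9 members that passed the filter were called at an adjusted p under 0.05, beside 0.375% of all tested genes (0.273% raised and 0.102% lowered). At an unadjusted p under 0.05 the count was 2 of 9, beside 8.48% of all genes. Since the choice of the genes used this comparison, that count cannot show that they differ more often than other genes. A lower KO mean was seen for 6 of the 9, beside 50.7% of all tested genes. Clec4b1 did not pass the filter, which asks for 3 libraries and therefore can be met by one genotype alone.

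**Figure D1:**
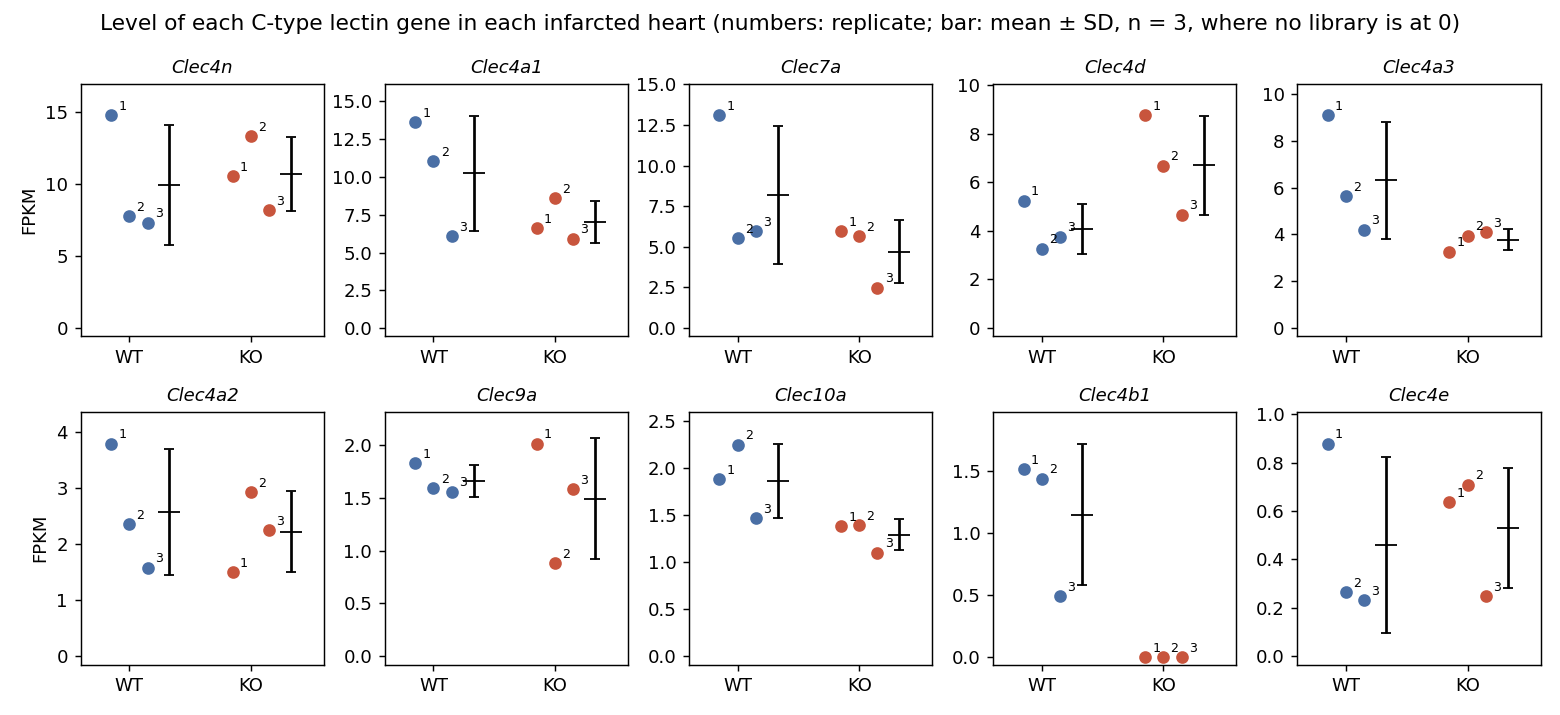
FPKM of each of the 10 lectin genes (y axis, linear and scaled per gene) in the 3 WT and 3 KO hearts; points are libraries numbered by replicate and bars the mean ± SD, drawn where no library is listed at 0. Clec4d lies between 3.27 and 5.25 FPKM in the WT hearts and between 4.67 and 8.76 FPKM in the KO hearts, and Clec4b1 is listed at 0 in all 3 KO hearts.

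Among the receptors that pair with the Fc receptor gamma chain, Clec4d showed the widest upward difference. It encodes MCL, which in mice binds mycobacterial glycolipid and helps to bring Mincle to the cell surface. Clec4d stood at 5.25, 3.27 and 3.76 FPKM in WT replicates 1 to 3 and at 8.76, 6.70 and 4.67 FPKM in KO replicates 1 to 3. Only WT replicate 1 reached above the lowest KO heart. The means were 4.09 ± 1.03 and 6.71 ± 2.04 FPKM (SD, n = 3 each), and the log2 difference, KO minus WT on the scale of log2(FPKM + 0.5) used throughout, was 0.65 ± 0.24 (SE). With WT replicate 1 left out it was 0.78, with KO replicate 3 left out 0.85, and with KO replicate 1 left out 0.42.

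Clec4n, the gene of Dectin-2, which recognises fungal mannans, was the most abundant member. Its FPKM was 14.8, 7.77 and 7.31 in WT and 10.5, 13.3 and 8.19 in KO hearts. The groups overlapped, and the log2 difference was 0.16 ± 0.25 (SE), ranging from 0.019 without WT replicate 3 to 0.42 without WT replicate 1. Clec4e encodes Mincle, a sensor of mycobacterial glycolipid and of a nuclear protein released by dying cells, and was the least abundant member by its mean over the 6 hearts. It stood at 0.878, 0.266 and 0.232 FPKM in the WT hearts and at 0.637, 0.709 and 0.249 FPKM in the KO hearts. WT replicate 1 and KO replicates 1 and 2 formed the upper values and the remaining hearts the lower, and the log2 difference was 0.15 ± 0.31 (SE), from 0.0063 without WT replicate 3 to 0.41 without WT replicate 1. Clec4d and Clec4e lie 6.52 kb apart on opposite strands, and their mean levels over the 6 hearts were 5.40 and 0.495 FPKM.

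Clec4b1 encodes DCAR, an activating receptor that binds mycobacterial phosphatidylinositol mannosides in mice. It was at 1.52, 1.44 and 0.491 FPKM in WT hearts and was listed at 0 in KO replicates 1, 2 and 3. By the length of its longest transcript (748 bases) the WT values amount to about 10.7, 8.6 and 1.9 fragments. A count of 0 allows up to 3 fragments, which would be 0.570, 0.491 and 0.584 FPKM in the KO libraries, so the lowest WT heart would not be told from the KO hearts at this depth. These limits cover counting error only. Of 1811 protein-coding genes whose WT mean lay within 1.5 times that of Clec4b1, 4 were listed at 0 in all 3 KO hearts (Clec4b1, Stfa2l1, Serpina1a and Serpina1c), and Clec4b1 was the 1 of these with a value above 0 in all 3 WT hearts. In the mirror case, with a KO mean in that range, values above 0 in all 3 KO hearts and 0 in all 3 WT hearts, there was no gene (0). That 0 is the counterpart of the 1 gene and not of the 4. This set was built after the value of Clec4b1 had been seen, and choosing genes by their WT mean favours those higher in WT hearts.

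Clec4a2, the inhibitory receptor gene, and its relatives Clec4a1 and Clec4a3, which RefSeq lists under the synonyms Dcir4 and Dcir3, had lower KO means. Clec4a3 stood at 9.09, 5.65 and 4.21 FPKM in the WT hearts and at 3.26, 3.94 and 4.11 FPKM in the KO hearts. The highest KO heart lay just under the lowest WT heart, and the log2 difference was -0.60 ± 0.22 (SE). Every KO heart below every WT heart was also seen for 7.5% of all tested genes. Without WT replicate 1 the difference was -0.37, and without KO replicate 3 it was -0.68.

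Clec4a1 was at 13.6, 11.0 and 6.10 FPKM in the WT hearts and at 6.63, 8.59 and 5.91 FPKM in the KO hearts. WT replicate 3 fell within the KO range, and the log2 difference was -0.44 ± 0.25 (SE), or -0.26 without WT replicate 1. Clec4a2 was at 3.79, 2.35 and 1.58 FPKM in the WT hearts and at 1.49, 2.93 and 2.25 FPKM in the KO hearts, with groups that overlapped. Its log2 difference of -0.13 ± 0.27 (SE) was above 0 without WT replicate 1 (0.095) and without KO replicate 1 (0.049).

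**Figure D2:**
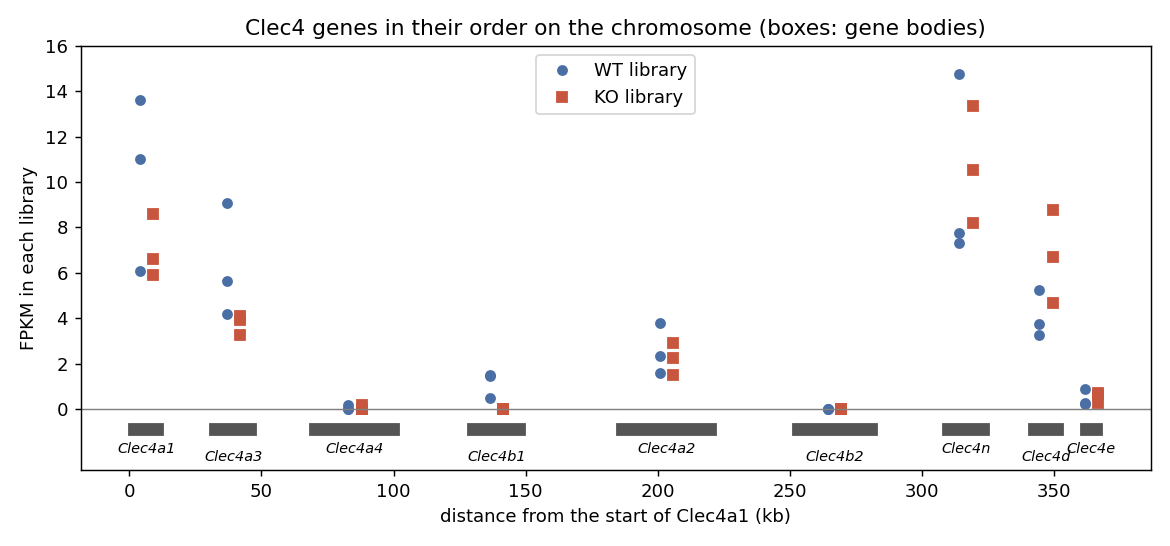
FPKM in each of the 3 WT and 3 KO libraries (y axis) for the 9 Clec4 genes of chromosome 6, placed at their distance in kb from the start of Clec4a1 (x axis); boxes are gene bodies. Clec4a1 and Clec4a3 at one end have lower KO means, Clec4d at the other end a higher one, and Clec4b2 is listed at 0 throughout.

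Clec7a and Clec9a, the genes with a tyrosine motif of their own, lie together but differed in pattern. Clec7a encodes Dectin-1, the receptor for fungal beta-glucan, and stood at 13.1, 5.54 and 5.95 FPKM in the WT hearts and at 5.94, 5.66 and 2.47 FPKM in the KO hearts. WT replicate 1 stood far above the others and KO replicate 3 was the lowest, while the other 4 hearts lay between 5.54 and 5.95 FPKM. The log2 difference of -0.71 ± 0.37 (SE) was -0.38 without WT replicate 1 and -0.36 without KO replicate 3. Clec9a, the DNGR-1 gene of cross-presenting dendritic cells, whose protein binds actin exposed by dead cells, was at 1.83, 1.59 and 1.56 FPKM in the WT hearts and at 2.01, 0.882 and 1.58 FPKM in the KO hearts. The KO hearts spanned the WT values on both sides, and the log2 difference was -0.14 ± 0.25 (SE), or 0.13 without KO replicate 2.

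Clec10a encodes the galactose-type lectin MGL1 of macrophages and dendritic cells. Its FPKM was 1.88, 2.25 and 1.46 in WT and 1.38, 1.39 and 1.10 in KO hearts. No KO heart reached the WT range, a pattern shared by 7.5% of all tested genes. The gap between WT replicate 3 and KO replicate 2 was narrow, and the log2 difference was -0.38 ± 0.17 (SE). Mgl2, its neighbour on chromosome 11, was at 7.79 ± 0.58 FPKM in the WT hearts and 5.99 ± 1.05 FPKM in the KO hearts (SD, n = 3 each; log2 difference -0.35 ± 0.16 SE, limma adjusted p = 0.641). Of the stretches of 50 bases in Clec10a transcripts, 9.02% also occur in other genes, mostly in Mgl2. The same share was 8.68% for Clec4b1, all of it with Clec4a2, and 6.83% for Clec4a2, mostly with Clec4a4 and Clec4b1. It was 4.02% for Clec9a, all with the overlapping gene Clec1b, 0.686% for Clec4n and 0 for the other 5. The values of Clec10a, Clec4b1, Clec4a2 and Clec9a are therefore uncertain, by an amount that also depends on the level of the other gene and was not tested.

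In order of mean FPKM over the 6 hearts the genes ran Clec4n, Clec4a1, Clec7a, Clec4d, Clec4a3, Clec4a2, Clec9a, Clec10a, Clec4b1 and Clec4e. Neighbours in this order were compared within libraries by an exact sign-flip permutation test (two-sided, 6 libraries, smallest possible p = 0.0312, adjusted over 9 pairs), and 0 of 9 pairs passed. For 3 pairs the first gene was higher in all 6 hearts, namely Clec4a1 over Clec7a, Clec4a3 over Clec4a2 and Clec10a over Clec4b1 (exact permutation adjusted p = 0.0938 each). These 3 pairs had the smallest possible p, which passes after adjustment only if many pairs reach it. The count of 0 of 9 therefore does not show that neighbours were level. Clec9a and Clec10a were nearly level (mean log2 gap 0.00076, higher in 3 of 6 hearts).

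The summed lectin signal overlapped between the genotypes, highest in WT replicate 1, and its make-up leaned toward Clec4d and Clec4n in KO hearts. The 10 genes summed to 65.7, 41.1 and 32.7 FPKM in the WT hearts and to 40.7, 44.1 and 30.5 FPKM in the KO hearts, which overlapped. Clec4d made up 7.98%, 7.94% and 11.5% of that sum in WT and 21.5%, 15.2% and 15.3% in KO hearts. Clec4n made up 22.5%, 18.9% and 22.4% in WT and 25.9%, 30.2% and 26.8% in KO hearts, also without overlap. A share also rises when other members fall, and the level of Clec4n itself overlapped (log2 difference 0.16 ± 0.25 SE). Such shares were not taken for other genes, so no background stands beside them. Clec4a3 held 13.5% ± 0.52 in WT and 10.1% ± 2.91 in KO hearts, and Clec7a 17.2% ± 3.35 and 11.8% ± 3.37 (SD, n = 3 each), both with overlap. The log2 ratio of Clec4d to Clec7a was between -1.24 and -0.60 in WT and between 0.22 and 0.80 in KO hearts. The ratio of Clec4d to Clec4e overlapped, with 2.03 to 2.58 in WT and 2.54 to 3.05 in KO hearts. These ratios were chosen after the values had been seen and carry no test.

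**Figure D3:**
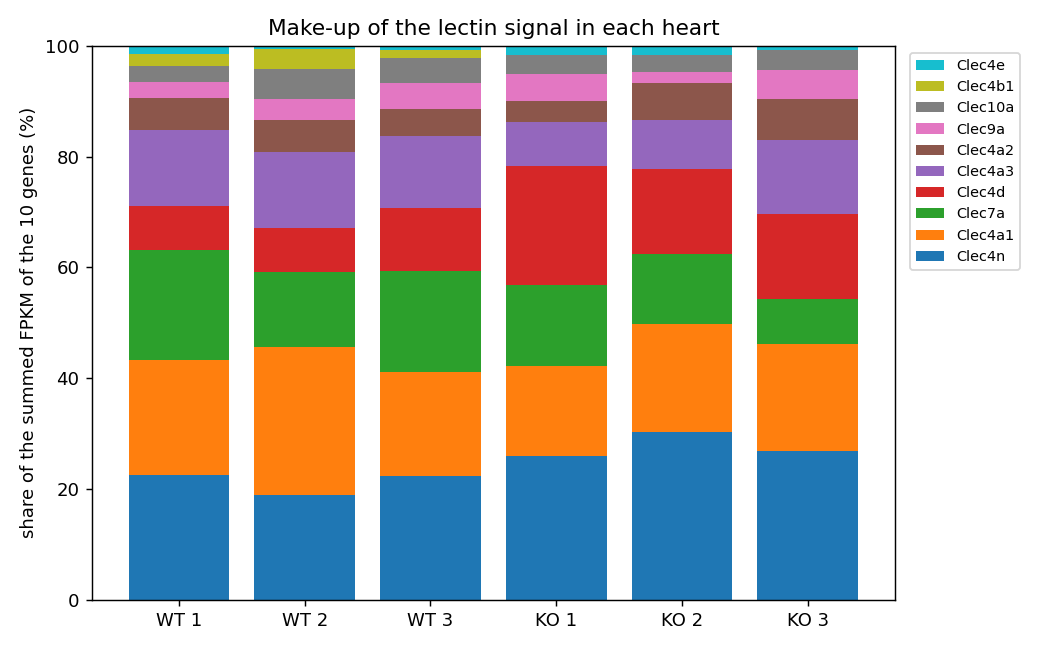
Share of the summed FPKM of the 10 genes (y axis, %) held by each gene in each WT and KO library. The Clec4d band is 7.94% to 11.5% in WT and 15.2% to 21.5% in KO hearts.

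Markers of the cells that carry these receptors were measured in the same libraries. In bulk tissue, fewer cells of a type and less RNA per cell cannot be told apart. All 12 pan-macrophage markers were tested, 10 had a lower KO mean, and 0 were called (limma; 1 at an unadjusted p under 0.05). Their summed level was 771 to 1350 FPKM in the WT hearts and 737 to 1013 FPKM in the KO hearts, and none was at 0. The mean log2 value of these markers was lower in KO hearts by 0.20, and subtracting it from each gene left log2 differences of 0.85 for Clec4d, 0.36 for Clec4n, 0.35 for Clec4e, -0.24 for Clec4a1, -0.40 for Clec4a3 and -0.51 for Clec7a. On that scale every KO heart was above every WT heart for Clec4d, beside 13.6% of all tested genes. Every KO heart was below every WT heart for 0 of the 9 tested members, Clec4a3 and Clec10a included, beside 1.64% of all genes, while Clec4a2 (0.066) and Clec9a (0.059) came out above 0.

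**Figure D4:**
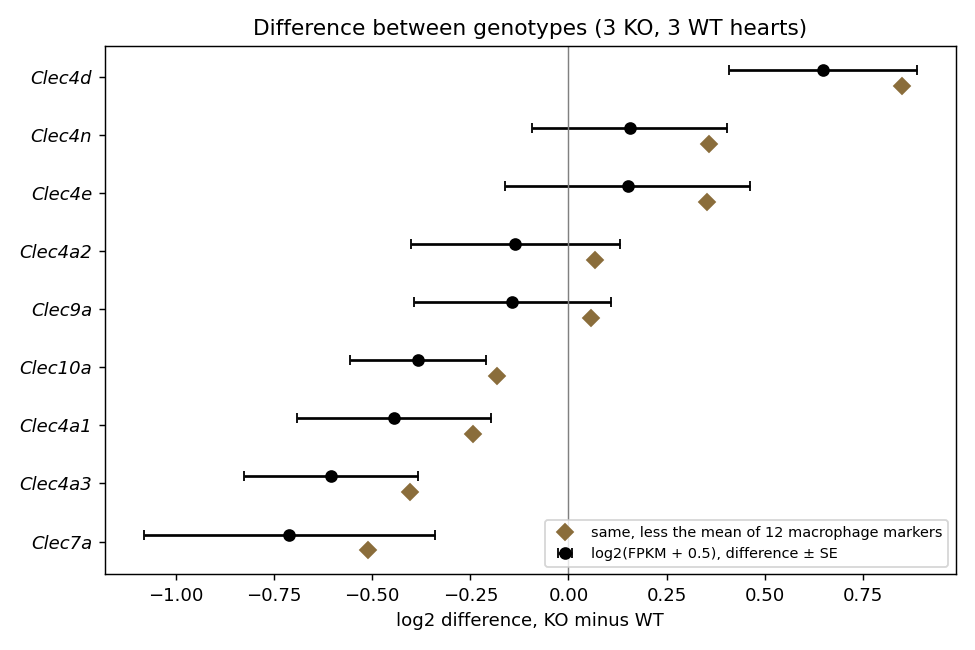
Log2 difference, KO minus WT (x axis), for the 9 genes with no library at 0; circles with bars are differences ± SE on log2(FPKM + 0.5), n = 3 per genotype, and diamonds the same after subtracting the mean of 12 macrophage markers. Clec4d is highest on both scales (0.65 and 0.85) and Clec7a lowest (-0.71 and -0.51).

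Neutrophils, which also carry Mincle and MCL, gave summed markers of 62.4 to 87.1 FPKM in the WT hearts and 23.9 to 44.7 FPKM in the KO hearts. Of the 12 markers 10 were tested, and 1, S100a8, a calprotectin subunit gene, fell by 1.24 ± 0.18 on the log2 scale (SE, limma adjusted p = 0.0467). All 10 had a lower KO mean and 6 of 10 had an unadjusted p under 0.05. Ly6g was at 0 in WT replicate 3 and KO replicate 3, and Camp in WT replicate 3 and KO replicate 2. Of 12 dendritic cell markers 9 were tested and 0 were called (limma, 1 at an unadjusted p under 0.05). Their sums were 18.9 to 28.6 FPKM in the WT hearts and 16.1 to 17.1 FPKM in the KO hearts. The most abundant of the 12, Mgl2, gave 7.28 to 8.42 FPKM of the WT sums and 4.99 to 7.09 FPKM of the KO sums. Mgl2 and Cd209a, also on this list, are themselves C-type lectin genes and are counted again among the lectins outside the 10. The resident macrophage marker Mrc1 is counted there too. Mgl2 gave 7.67 of the 18.9 FPKM of WT replicate 3 and 4.99 of the 16.7 FPKM of KO replicate 2. What remains is higher in KO replicate 2, so the gap between the sums does not hold without Mgl2. Irf4, a transcription factor gene of 1 class of conventional dendritic cells, stood at 1.26 ± 0.59 and 0.28 ± 0.08 FPKM (SD, n = 3 each; limma adjusted p = 0.211). Xcr1, the chemokine receptor gene of the Clec9a-bearing dendritic cells, did not pass the filter. It was between 0.366 and 0.550 FPKM in the WT hearts and between 0.194 and 0.291 FPKM in the KO hearts. Batf3, a factor of the same cells, was at 0 in WT replicate 3 and KO replicate 3. Cadm1 and Wdfy4, also on the dendritic cell list, did not fall, with log2 differences of 0.091 and 0.0078. Of the 9 tested dendritic cell markers 7 had a lower KO mean. Of 9 monocyte markers, 8 were tested and 1, Nr4a1, which is also an immediate early gene, rose (log2 difference 1.76, limma adjusted p = 0.0267). Of these 8, 5 had a lower KO mean, and the median log2 difference was -0.42. Ccr2, the chemokine receptor gene of inflammatory monocytes, was at 5.54, 4.12 and 3.63 FPKM in the WT hearts and at 1.51, 2.78 and 1.35 FPKM in the KO hearts, each KO heart below each WT heart (limma adjusted p = 0.143; chosen after its values were seen). Summed monocyte markers were 24.8 to 47.2 FPKM in the WT hearts and 34.0 to 47.5 FPKM in the KO hearts, and without Nr4a1 they were 17.6 to 42.4 and 13.4 to 24.2 FPKM. Of the other lists, 0 of 8 resident macrophage, 0 of 6 general leucocyte, 0 of 6 fibroblast, 0 of 5 endothelial and 0 of 4 tested T and B cell markers were called (limma; 2, 2, 0, 1 and 2 at an unadjusted p under 0.05). The T and B cell markers summed to 6.03 to 13.2 FPKM in the WT hearts and to 4.34 to 5.35 FPKM in the KO hearts. The part of these cell types in the differences of the lectin genes was not tested.

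The lectin genes varied among hearts of 1 genotype along with markers of several cell types of the infarct, lymphocytes included. With the genotype means removed, the mean of the 9 tested members correlated over the 6 libraries with the monocyte markers at r = 0.958, T and B cell markers at 0.956, dendritic cell markers at 0.931, fibroblast markers at 0.904 and macrophage markers at 0.860. It ran against the cardiomyocyte markers at r = -0.734. With neutrophil markers (r = -0.184) and resident macrophage markers (r = 0.147) it was near level. These values describe 6 libraries that share their depth and tissue make-up, and WT replicate 1, highest for 7 of the 10 genes, weighs on each of them. Clec4e and Clec4n lay closest to the mean of the other members (r = 0.947 and 0.919), and Clec9a (-0.111) and Clec10a (0.211) farthest. Of 36 pairs of members 29 had an r above 0, with a median of 0.362. Of 11064 named protein-coding genes with a mean of at least 1 FPKM, those with the highest r to the members' mean were Pus10 (0.998), Spg21, Fosl1, Vsig4 and Ogn (0.997 each). Taken as the highest of so many values over 6 libraries, these r values are raised by that choice and carry no test. Vsig4, a complement receptor gene of resident macrophages, stood at 6.37, 4.43 and 3.76 FPKM in the WT hearts and 3.20, 3.49 and 2.71 FPKM in the KO hearts (limma adjusted p = 0.398).

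**Figure D5:**
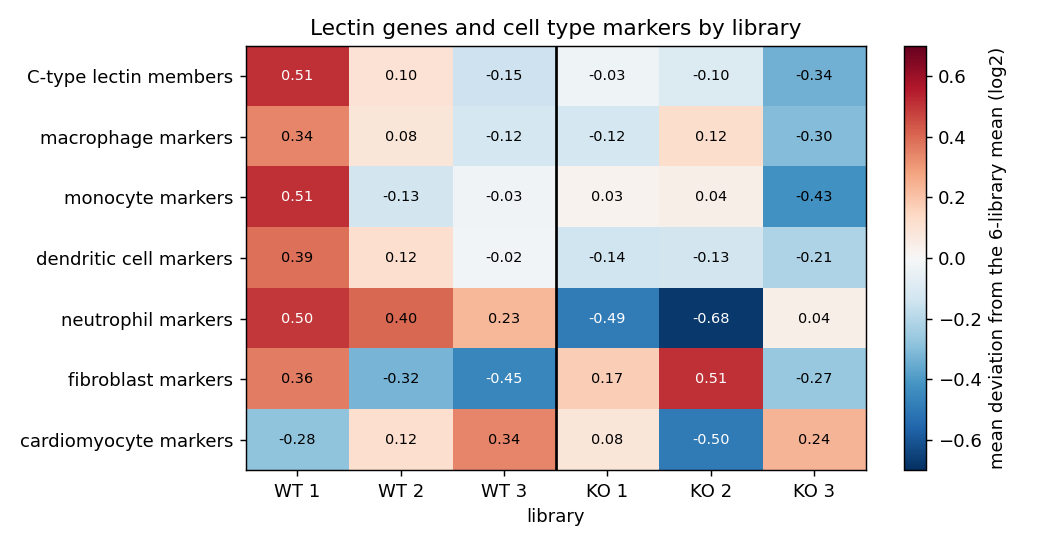
Mean deviation from the 6-library mean (log2, colour and number) of the 10 lectin genes and of 6 marker lists (rows) in each WT and KO library (columns). The lectin row is highest in WT replicate 1 (0.51) and lowest in KO replicate 3 (-0.34), and the neutrophil row is above 0 in all 3 WT hearts.

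No gene downstream of the receptors passed the test. Of 31 genes of adaptors, kinases, phosphatases and CARD9 signalling, 30 were tested, 25 had a lower KO mean, and 0 were called (limma; 4 at an unadjusted p under 0.05). Their median log2 difference was -0.17, beside -0.0042 over all tested genes. Fcer1g, the shared gamma chain gene, was at 99.7, 84.9 and 70.6 FPKM in the WT hearts and at 68.7, 96.1 and 61.5 FPKM in the KO hearts, far above any member in level. The groups overlapped for Fcer1g, as they did for Syk (5.58 ± 0.71 and 4.71 ± 0.88 FPKM) and Card9 (1.31 ± 0.62 and 1.13 ± 0.49 FPKM; SD, n = 3 each). The smallest p belonged to Ptpn6, the gene of the phosphatase SHP-1 of the inhibitory branch, with 13.2, 11.8 and 10.8 FPKM in the WT hearts and 5.49, 10.9 and 5.21 FPKM in the KO hearts. Its log2 difference was -0.75 ± 0.23 (SE, limma adjusted p = 0.373), and without KO replicate 2, the 1 KO heart within the WT range, it was -1.03 with an adjusted p of 0.0475 by limma. Leaving out the KO heart that overlaps is bound to widen the difference. With any other single library left out, the limma adjusted p for Ptpn6 was between 0.511 and 0.760. Next were the Src family kinase gene Fgr (log2 difference -0.82 ± 0.26 SE, limma adjusted p = 0.398) and the NF-kB subunit gene Rel (-0.47, limma adjusted p = 0.520).

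Of 16 genes that myeloid cells induce through these receptors 10 were tested, 6 had a lower KO mean and 0 were called (limma; 2 at an unadjusted p under 0.05). The chemokine gene Ccl3 was at 3.82, 1.67 and 1.64 FPKM in the WT hearts and 0.319, 1.16 and 1.28 FPKM in the KO hearts (limma adjusted p = 0.473). Ptgs2, the inducible cyclooxygenase gene, differed in the other direction, with 0.61 ± 0.26 and 1.28 ± 0.54 FPKM (limma adjusted p = 0.522), and Il1b stood at 1.90 ± 0.71 and 1.23 ± 0.65 FPKM (SD, n = 3 each; limma adjusted p = 0.750). Csf3 was listed at 0 in all 6 libraries.

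Among 46 C-type lectin genes outside the 10, 18 were tested, 8 of them with a lower KO mean, and 0 were called (limma; 2 at an unadjusted p under 0.05); their median log2 difference was 0.0079. Clec1a, an endothelial and myeloid lectin gene that lies between Clec9a and Clec7a, was at 5.64, 6.01 and 5.03 FPKM in the WT hearts and at 6.98, 8.18 and 7.55 FPKM in the KO hearts. Each KO heart lay above each WT heart, which 5.29% of all tested genes shared, and the log2 difference was 0.43 ± 0.11 (SE, limma adjusted p = 0.293). Clec12a, an inhibitory myeloid lectin gene, differed by -0.53 (limma adjusted p = 0.578) and Clec11a, which encodes a secreted growth factor, by 0.55 (limma adjusted p = 0.616). Of 20 other myeloid receptor genes that signal with Fcer1g or Tyrobp, 12 were tested, 10 had a lower KO mean and 0 were called (limma; 2 at an unadjusted p under 0.05). Fcgr1, the high-affinity IgG receptor gene, was at 5.53 ± 1.55 and 2.98 ± 0.93 FPKM (SD, n = 3 each; limma adjusted p = 0.307). It is also on the pan-macrophage list, where it was the 1 marker at an unadjusted limma p under 0.05. Treml4 was at 0.667, 0.680 and 0.593 FPKM in the WT hearts and 0.250, 0.184 and 0 in KO hearts (limma adjusted p = 0.311), and Lilra5 differed by -0.27 (limma adjusted p = 0.735).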

How the data were processed

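The authors deposited 1 table of 52550 genes by 6 libraries. It is titled as counts but its FPKM values were scaled by the authors to transcript length and library size before they were deposited, as the values show (37.2% to 40.4% per library are not whole). Bowtie 0.12.2 and the builds mm8 and mm9 are listed, without roles, in the submitters' processing notes, and the counting tool, annotation and use of strand are not stated there. Libraries were made with a TruSeq RNA kit from frozen hearts, per the labels' protocols.

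Symbols came from GENCODE M21 (52403 rows matched). FPKM was divided by trimmed-mean factors (trims 0.3 and 0.05; 0.949 to 1.07), and log2(value + 0.5) of 14656 genes (at least 0.5 FPKM in 3 libraries) was fitted with limma 3.58.1 in R 4.3.3 (genotype only, trend, two-sided, Benjamini-Hochberg, threshold 0.05) after a test on simulated data. The SE is limma's moderated one. Such differences understate changes of low genes. Fragment numbers take the most frequent FPKM times length of single-transcript genes as 1 fragment and are approximate. The labels name no separate litters or sessions, so the p-values reflect only how much these 6 samples spread, which may be technical. Members and lists were chosen with earlier results of these data known. Named genes are all members, the 3 of smallest p per list, and the 5 most alike within genotypes; markers, Mgl2, Fcer1g, Syk, Card9 and Csf3 were added.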

Additional observations from a re-analysis of the deposited data

How the results depend on the processing

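Counts over all genes depended on the filter and on single libraries. The 55 calls became 20 without a filter on low values (17 raised, 3 lowered) and ran from 12 to 36 with 1 library left out, lowest without KO replicate 1. Without WT replicate 1, 2 or 3 the count was 26, 16 or 26, and without KO replicate 2 or 3 it was 26 or 36. Under other scaling factors, filters, pseudocounts (0.1 and 1) and a robust fit it stayed between 46 and 65. None of the members tested was called under any of the 16 alternatives (scaling, filters, pseudocounts, fits and libraries left out). The number of members with a lower KO mean was 7 in the main fit, 6 to 7 with a library left out, and 5 relative to the macrophage markers, an alternative chosen after seeing the data. Of the 10 genes, 8 kept the sign of their difference in all 16; Clec4a2 kept it in 14 and Clec9a in 15. The signalling list had 0 to 1 called genes with a library left out, the 1 being Ptpn6 without KO replicate 2. No pair of neighbours in level passed with pseudocounts of 0.1 or 1; with a library left out none could, since the smallest p is then 0.0625. With the replicate number as a block 42 genes were called (24 raised, 18 lowered). Same-numbered libraries had correlations of deviations of 0.0076, -0.0357 and 0.18, and differently numbered ones ran from -0.202 to 0.193. These values do not decide whether the replicate numbers pair the hearts, and the main fit used genotype only. Depth limits Clec4b1 and Clec4e most, with about 1.9 to 10.7 and 5.8 to 39.7 fragments where they were detected.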
